A study of Homo sapiens with 24 samples.

Results

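Definitive endoderm (DE) is the first endodermal stage on the route from human pluripotent stem cells (hPSCs) to pancreas. The regions described here are the m6A peaks of DE that had no counterpart in the other 3 stages of the same differentiation, namely hPSCs, pancreatic progenitors (PPs) and human islet-like organoids (hILOs). They were chosen by 2 measured values. The peak had to hold 50 or more input reads in DE, and its span could not share a base on the same strand with any peak of the hPSC, PP or hILO list. Of 22436 DE peaks with 50 or more input reads, 2885 met the rule (12.9%, 95% interval 12.4 to 13.3), and the complete DE list held 32680 peaks. They are called DE-only peaks below, which says only that the caller listed no peak there at the other 3 stages.

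N6-methyladenosine (m6A) is the most common internal modification of messenger RNA. It is written by a METTL3 and METTL14 complex, mostly at DRACH motifs (in which D stands for any base but C, R for a purine and H for any base but G) near stop codons and in long exons, and it can be removed by ALKBH5 and FTO. Reader proteins of the YTH family bind the mark and shorten the life of many messages. DE arises from a primitive streak-like state under Nodal or activin and Wnt signalling, and its entry is governed by EOMES, GATA6, SOX17 and other transcription factors.

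All cells came from MEL1, an established human embryonic stem cell line, which the methods of the study give as MEL1 INS GFP/W, in which the insulin promoter drives GFP. The DE population had been treated with activin A, with the Wnt activator CHIR99021 on the first day, and the PP and hILO populations passed through this step before further media. WT PP and A5-KO PP formed a second experiment, in which the knockout cells lacked ALKBH5 after Cpf1 editing of the line and the WT cells kept it. Each of the 6 populations had 2 immunoprecipitated (IP) and 2 input libraries, 24 in all, but 1 peak list with pooled counts was deposited per population. Hence no spread between replicates could be given, no test between conditions was made, and the intervals below cover counting error only. The labels placed hPSC, DE, PP and hILO in batch 1 (mRNA, SYSY antibody) and both knockout-experiment populations in batch 2 (total RNA, Millipore antibody, another library kit), so batch cannot be told apart from that experiment. The reads inside peaks summed to 12602604 for the DE input and 30723097 for the DE IP, and the input sums of the other stages ranged from 6987612 in PP to 28463998 in hILO. As a check of the label, 27 of 31 genes on a list of DE regulators and markers had a DE peak of any input count, against 15 in hPSC, 16 in PP and 18 in hILO. WT PP and A5-KO PP reached 26 and 24, so the count sets DE apart within batch 1 only, while GSC, EOMES and DKK4 had peaks in no list but that of DE.

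The following stretches show what DE-only peaks look like in genes of endoderm regulation and signalling, in 1 of the most enriched peaks (ITGA4) and in 2 long noncoding RNAs (lncRNAs) with much input. Each is the genomic sequence (GRCh38, 5′ to 3′ on the strand of the gene) around the DRACH site nearest the middle of the peak, and the 5 bases of that site are in capitals. A motif match marks a sequence and not a methylated base.
GSC (chr14:94768423-94768451, minus strand): aaggacttgcacAGACAgacgatgctact
EOMES (chr3:27717132-27717160, minus strand): cataaagtgtgaGGACAttaatgctgaag
GATA6 (chr18:22171480-22171508, plus strand): gctgctgttcacTGACCtcgaccaagccg
PRDM1 (chr6:106104991-106105019, plus strand): aaaggacctcgaTGACTttagaagacgtg
LHX1 (chr17:36938245-36938273, plus strand): cttgaacgtgctGGACAgggcctggcacg
LGR5 (chr12:71584673-71584701, plus strand): cagcttatccagTGACTgagagctgccat
ERBB4 (chr2:211386866-211386894, minus strand): aggaaggttacaTGACTcctatgcgagac
ITGA4 (chr2:181535576-181535604, plus strand): aagaaatttaaaAGACActgtttacaaga
CFAP95-DT (chr9:69819711-69819739, minus strand): tttgatatttcgTGACAacacaaattcat
LINC01788 (chr1:70785437-70785465, plus strand): ctggaccactgaAAACCtaagggctgatg

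SOX17, EOMES, GSC and other genes that mark and drive DE were among those with DE-only peaks. Of the 27 listed DE regulators and markers with a DE peak of 50 or more input reads, 14 (51.9%, 34.0 to 69.3) held a DE-only peak, and over all genes the share was 21.3% (2322 of 10885). With IP/input of at least 3 the count was 8 of 23 (34.8%, 18.8 to 55.1), beside 16.7% over all genes (1284 of 7680). Of these 14 genes, 6 had no peak at all in hPSC, PP or hILO. The list was drawn up with earlier results of these data known, so the count is a description. Lists for other lineages were short, with 0 of 10 pluripotency genes (upper limit 27.8%), 0 of 5 primitive streak and mesoderm genes (43.4%), 0 of 4 neuroectoderm genes (49.0%), and 0 of 1 pancreatic and 0 of 1 liver gene (79.3% each), so that each interval still held the background. On the list of extraembryonic endoderm and trophoblast markers, 3 of 5 genes held one (60.0%, 23.1 to 88.2, SOX7, DAB2 and GATA3), and SOX7 stands on both lists. In peak lists a gene with few transcripts and a gene with unmethylated transcripts both appear as absent, so the 2 cannot be told apart here.

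**Figure D1:**
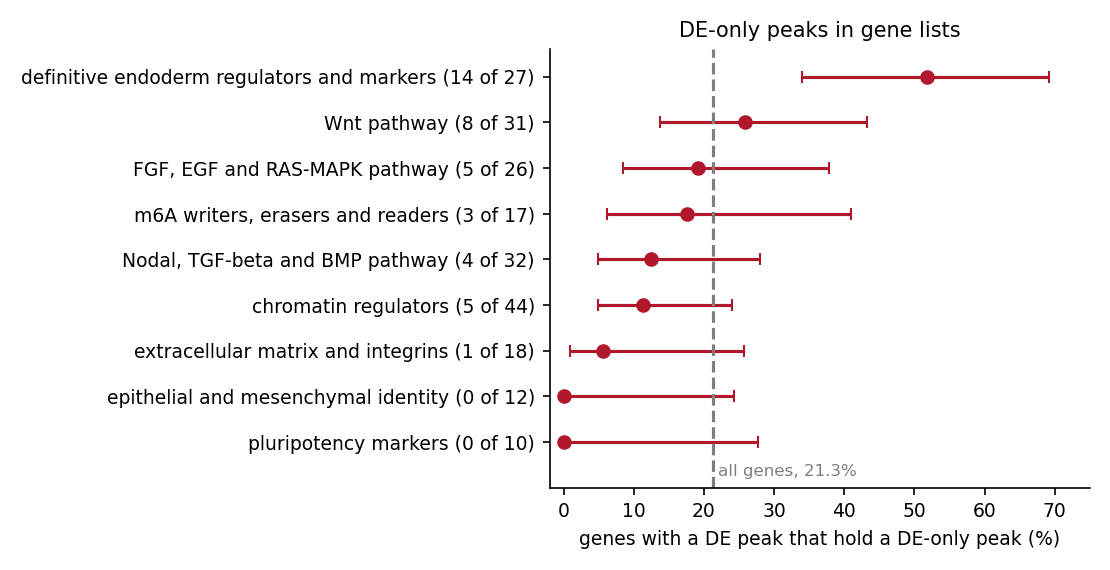
Share of genes with a DE-only peak among the genes of each list that had a DE peak of 50 or more input reads, for lists with 10 or more such genes. Points are shares, bars are 95% Wilson intervals, and the dashed line is the share over all genes (21.3%), which, among the lists shown, only the interval of the DE regulators and markers lies wholly above.

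SOX17, EOMES, GSC and DKK4 had no peak in the hPSC, PP and hILO lists. SOX17, which is needed to establish and keep DE, had 3 peaks in DE and 0 in hPSC, PP and hILO, and all 3 were DE-only. The peaks held 11219, 731 and 180 input reads with 38491, 2661 and 538 IP reads, and the last of these lay over the stop codon. The batch 2 lists held 3 SOX17 peaks with 1181 input reads (WT PP) and 2 with 2 input reads (A5-KO PP), and only the peak at the stop codon overlapped them. EOMES, the T-box factor that opens the endoderm programme, had 4 peaks in DE, all DE-only, and 0 in each of the other 5 lists. Its main peak (chr3:27716774-27717573, exon 6 of 6) held 3816 input and 9543 IP reads, a log2 enrichment of 1.81 ± 0.03 (counting error). GSC, a homeobox gene of the organizer, had a single peak in the 6 lists (chr14:94768223-94768572, 3UTR, midpoint 93 nt past the stop codon), with 4555 input and 18905 IP reads and a log2 enrichment of 2.28 ± 0.02. DKK4, a secreted Wnt antagonist, also had 1 peak in all, with 339 input and 398 IP reads and a low enrichment (log2 0.69 ± 0.11).

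HAS2, a hyaluronan synthase, and LHX1, a LIM homeobox factor, likewise had no peak in hPSC, PP or hILO, and like SOX17 they had peaks in batch 2. HAS2 had 5 peaks in DE, of which 3 were DE-only, while WT PP held 5 and A5-KO PP 4. The strongest of the 3 held 8596 input and 22379 IP reads (log2 2.21 ± 0.02) and overlapped both batch 2 lists. The HAS2 peak at the 5UTR also lay over an exon of the opposite-strand gene HAS2-AS1. LHX1 had 5 peaks in each of the DE and batch 2 lists, and 2 of its DE peaks met the rule, with 362 and 76 input reads.

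Other DE regulators had a DE-only peak beside peaks at other stages. CER1, the secreted Nodal and BMP antagonist, held 89465 input reads in its 2 DE peaks and 108 in its 2 hPSC peaks, and the DE-only peak was in the 5UTR (3154 input and 7016 IP reads), 350 nt from the nearest peak of another stage. GATA6, whose loss blocks human endoderm formation, had 4 DE peaks, 2 PP peaks and 2 hILO peaks, with 11293, 366 and 590 input reads. Its larger DE-only peak lay in the CDS with 1363 input and 6127 IP reads (log2 1.52 ± 0.04). GATA4 had 4, 5 and 4 peaks in DE, PP and hILO (7543, 3709 and 9656 input reads), and the 1 DE-only peak spanned 3 exons 475 nt from the nearest other. PRDM1, a repressor used in endoderm and germ cells, had a DE-only peak over 2 exons with 568 input and 1608 IP reads (log2 2.07 ± 0.07), 75 nt from a peak of another stage. SOX7 had a 3UTR peak with 1101 input and 3985 IP reads 125 nt away from an hPSC peak, and both batch 2 lists covered it. TRPA1, a cation channel, had the highest enrichment on the list, with 362 input and 1599 IP reads in its 3UTR (log2 3.56 ± 0.08). CXCR4, the chemokine receptor used to sort DE cells, came after the 12 with most input and is named after its values were seen. Its DE-only peak, at the 5UTR, held 132 input reads and 276 IP reads.

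Pathways that drive the step to DE stood nearer to the background of 21.3%. In the Nodal, TGF-beta and BMP pathway 4 of 32 genes (12.5%, 4.97 to 28.1) held a DE-only peak, and all 4 also had peaks at other stages. SMURF2, a ubiquitin ligase that acts on the receptors and SMADs, had 4 peaks in DE and 1 at each other stage, and the DE-only peak joined 2 exons of the CDS with 623 input and 1282 IP reads (log2 2.19 ± 0.07). The others were SMURF1, the type II receptor BMPR2 and the effector SMAD1, with 96, 368 and 61 input reads. The BMPR2 peak lay 54 nt before the stop codon and 125 nt from a peak of another stage. SMAD1 had the weakest enrichment of the 4 (log2 1.24 ± 0.24).

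In the Wnt pathway 8 of 31 genes (25.8%, 13.7 to 43.2) held a DE-only peak. LGR5, the R-spondin receptor, had 1 peak in DE over its stop codon (chr12:71584588-71584862, 235 input and 425 IP reads, log2 1.51 ± 0.12) and 0 in hPSC, PP and hILO, while A5-KO PP held 2. WNT3, the ligand that induces the primitive streak, had 3 peaks in DE and 2, 2 and 1 in hPSC, PP and hILO, and the DE-only peak lay 1711 nt past the stop codon with 134 input and 402 IP reads (log2 2.48 ± 0.14). Members of the beta-catenin destruction complex and its regulation were APC, APC2, AXIN1 and GSK3B, with 66, 1199, 733 and 196 input reads in their DE-only peaks. The secreted inhibitors were FRZB, with 158 input reads, and DKK4, given above.

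In the FGF, EGF and RAS-MAPK list 5 of 26 genes (19.2%, 8.51 to 37.9) held a DE-only peak. FGF17, a ligand of the FGF8 subfamily, had its single peak in DE at the 5UTR, with 3494 input and 8179 IP reads (log2 1.16 ± 0.03), and 0 in the other 5 lists. ERBB4, a neuregulin receptor, had 5 peaks in DE and 0 in hPSC, PP and hILO, while WT PP held 6 and A5-KO PP 10. Of its 5 DE peaks, 4 met the rule and clustered around the end of the coding sequence, from 490 nt before to 1235 nt past the stop codon. The strongest of these (chr2:211386859-211386933, exon 27 of 28) held 276 input and 822 IP reads (log2 2.67 ± 0.10). The receptors FGFR3 and ERBB3 and the RAS pathway inhibitor SPRED2 each had 1 DE-only peak in the 3UTR, with 166, 71 and 191 input reads.

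Genes of the m6A machinery and of chromatin had DE-only peaks beside many shared ones. Of 17 m6A factors 3 held one (17.6%, 6.19 to 41.0), beside 21.3% over all genes, and all 3 had peaks at every stage. RBM15B, an adaptor of the writer complex, had 2 in its 3UTR, with 1084 and 195 input reads, and both overlapped WT PP. The larger also lay over an exon of the opposite-strand gene DCAF1. The readers YTHDF2 and IGF2BP3 had 1 each, with 563 and 97 input reads, and 48.4% of the 31-base words of the IGF2BP3 peak also occurred in transcripts of genes elsewhere. Of 44 chromatin regulators 5 held one (11.4%, 4.95 to 24.0), among them the acetyltransferase EP300, with 101 input and 249 IP reads in the 3UTR (log2 3.05 ± 0.17), directly beside a peak of another stage. TET1, the DNA demethylase, had 2 in its 3UTR, 2350 and 2450 nt from the nearest other-stage peak of the gene. Of 18 matrix and integrin genes 1 held one (FLRT3; 5.56%, 0.99 to 25.8), and of 12 epithelial or mesenchymal genes 0 did (upper limit 24.2%). The intervals of these 4 lists all held the 21.3% over all genes.

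The gene often had other peaks, but less often than genes of the DE list at large. Of the 2322 genes with a DE-only peak, 66.5% had a peak in hPSC, 54.0% in PP and 58.0% in hILO. Of all 10885 genes with a DE peak of 50 or more input reads, the shares were 88.3%, 77.5% and 81.2%. The rule favours lower shares, since each DE peak it removed overlapped a peak of another stage. Among the 2851 DE-only peaks matched to a gene, 1248 (43.8%, 42.0 to 45.6) lay on 1039 genes that had peaks at all 3 other stages, and 716 (25.1%, 23.6 to 26.7) lay on 583 genes with no peak at any of them. A further 472 lay on genes with peaks at 1 other stage and 415 on genes with peaks at 2. Of the 2322 genes, 1938 had 1 DE-only peak, 292 had 2, 64 had 3 and 28 had 4 or more, and 1467 (63.2%) also had a DE peak shared with another stage. Where the gene had a peak at another stage, the nearest one lay a median of 350 nt of exon away (quartiles 100 and 1175, n = 2135). It was within 50 nt for 433 peaks (20.3%) and within 1000 nt for 1535 (71.9%).

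The 583 genes without a peak at the other stages were 258 coding genes and 251 lncRNA genes, with the rest pseudogenes and other types. Of their 284 placed peaks 24.3% (19.7 to 29.6) lay within 200 nt of the stop codon, beside 12.4% (10.4 to 14.8) of 871 on genes with peaks at all 3 other stages, a difference of 11.9 points (6.71 to 17.6). By width the difference was 16.4 points (7.83 to 26.5) under 100 nt, 6.31 (-1.38 to 15.2) from 100 to under 200 nt and 14.2 (0.65 to 26.95) above, so the interval of the middle class included 0. On genes with peaks at other stages the rule removed the DE peaks that overlapped them. Of the placed DE peaks it removed, 22.7% lay within 200 nt of the stop codon. The rule thus lowers the share on these genes but not on the 583, so nothing is read from the direction. Of the 583 genes, 354 (60.7%) had a peak in WT PP or A5-KO PP. This share was low beside that of all 2322 genes with a DE-only peak, which include the 583. For those 2322 genes, the WT PP list alone held a peak on 73.7%, and the A5-KO PP list alone on 79.4%. The same share over all genes of the DE list is not given here. For genes with peaks at all 4 stages, the input reads inside peaks were scaled to the sum of each list. The median log2 level in DE minus hPSC was 0.47 for the 1039 genes with a DE-only peak and 0.11 for 6388 other genes, and the values were 0.68 and 0.43 against hILO and -0.08 and -0.43 against PP. The level inside peaks contains the DE-only peaks themselves, which raises the DE level by construction.

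The 10 genes without a peak at the other stages that had most input were HAS2, SOX17 and 8 others. LINC01788 had 1 peak in DE (21698 input and 61490 IP reads, log2 1.95 ± 0.01) and 1 in A5-KO PP. CFAP95-DT had 3 peaks in DE and 0 in the other 5 lists, and its 2 DE-only peaks held 23077 and 838 input reads. LUARIS and ENSG00000287370 are further lncRNAs, with 17369 and 6284 input reads in their larger peaks. The processed pseudogene GAPDHP20 held 32116 input and 41934 IP reads at a low enrichment (log2 0.71 ± 0.01), and the pseudogene ENSG00000251468 held 10430 input reads. ENSG00000173867, listed as coding, had 11756 input reads in a 75 nt peak of the 5UTR. ENTPD8, an ectonucleotidase, had 7069 input and 12000 IP reads in a 50 nt peak of the 3UTR. Of these 8 genes, 2 had a peak in a batch 2 list. Among all members, DNASE1L1 came first with 57533 input and 118435 IP reads in 75 nt, a stretch that lies over an exon of the opposite-strand ribosomal protein gene RPL10. ENSG00000265678 (29732 input reads) lay over an exon of CCDC57 on the other strand, 89.2% of the 31-base words of the ENSG00000284606 peak (11716 input reads) occurred elsewhere, and the last of the 10 was TSPEAR, with 10536 input and 40769 IP reads in 50 nt. Whether reads of the partner gene or of a copy add to these counts was not tested.

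TTN, which encodes the giant muscle protein titin, held the most DE-only peaks, 20 of its 47 DE peaks. The other stages had 5 (hPSC), 13 (PP) and 5 (hILO) peaks on it and the batch 2 lists 95 (WT PP) and 121 (A5-KO PP), with 4897 input reads in DE peaks against 185, 537 and 1765 at the other stages. All 20 lay in the CDS, and input ranged from 51 to 636 reads. The largest lay over the last exon (exon 363 of 363), 15 nt before the stop codon. XACT, an lncRNA of the X chromosome in pluripotent cells, CFLAR, an inhibitor of caspase-8, and MXRA5, a matrix protein, held 6 each. XACT had 33 DE peaks and 2 hPSC peaks, none in the PP and hILO lists of batch 1, and 40 (WT PP) and 88 (A5-KO PP) in batch 2. SEMA3E, ANGPT2 and RTL1 held 5 each. SEMA3E, a semaphorin, had 7 peaks and 3043 input reads in DE, 1 peak and 14 reads in hPSC, 3 peaks and 249 reads in A5-KO PP, and 0 peaks in PP, hILO and WT PP. ANGPT2, a ligand of the TIE2 receptor, had DE-only peaks between peaks of other stages, with 0 to 200 nt to the nearest. RTL1, an imprinted gene, had 6 peaks and 3696 input reads in DE, 1 peak and 362 reads in hILO and 0 peaks in hPSC and PP. In batch 2 it had 5 peaks with 3526 reads (WT PP) and 2 with 4838 reads (A5-KO PP). In all, 21 genes held 4 each, of which EOMES, the helix-loop-helix factor HES2 and LINC02955 had the most input reads in them. Of these 21 genes, 4 had no peak in the other 5 lists, namely EOMES and, named after their values were seen, MYCT1, MOBP and CD300E, with 983, 613 and 409 input reads in their DE-only peaks. Several peaks on 1 transcript share its reads and are not independent.

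The most enriched DE-only peaks were on other genes. The 10 with the highest log2 enrichment and a caller p below 1e-05 ranged from 3.42 to 4.01, and 8 of them held only 52 to 183 input reads. In ITGA4, the alpha-4 integrin, the peak began close to the stop codon (midpoint 59 nt past it, 78 input and 424 IP reads, log2 3.75 ± 0.18), and it also lay over an exon of the opposite-strand gene CERKL. In SOCS3, the feedback inhibitor of JAK-STAT signalling, it lay 1590 nt past the stop codon with 69 input and 399 IP reads (log2 3.49 ± 0.19). LINC02987 held 405 input and 2807 IP reads (log2 3.81 ± 0.08). KLRA1P, a pseudogene, and SRGAP2B, a human-specific gene copy, stood highest at 4.01 ± 0.21 and 4.01 ± 0.20, and 65.0% of the 31-base words of the SRGAP2B peak occurred elsewhere. LRBA (log2 3.70 ± 0.11) lay over an exon of MAB21L2 on the other strand. CHORDC1, EIF2AK3, TRPA1 and REEP3 made up the rest. The enrichment is the value fitted by exomePeak2 and not the plain ratio of the counts.

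Over all members, enrichment was much like that of other DE peaks. The median log2 enrichment was 1.61 (quartiles 1.27 and 2.01) for DE-only peaks and 1.65 (1.34 and 2.02) for the other 19551 peaks, and median input was 162 and 200 reads. Width differed more. The median was 100 nt of exon against 200 nt, and 49.0% of DE-only peaks were 75 nt or narrower against 16.8%. A narrow peak has fewer bases that could overlap, so the rule itself favours narrow peaks, and position and motif are therefore given by width as well. At the threshold the counts were continuous, with 30 non-overlapping DE peaks at 50 input reads and 38 at 49. LINC02240, ADGRF2 and MRPS5 stood just inside at 50 input reads with log2 3.33, 2.70 and 2.46, and PSKH2, LRP8-DT and BCL7C just outside at 49 reads with 2.97, 2.79 and 2.44.

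On messages, 1662 of the 2140 DE-only peaks on coding genes could be placed on the longest coding isoform, and 15388 of 17461 other DE peaks. Peaks off that isoform were left out, which was more frequent among DE-only peaks. In some such isoforms the coding sequence ends before the last exon, as at APC, whose peak counted as 3UTR in exon 8 of 16. They lay in the 3UTR in 48.9% (46.5 to 51.3), in the CDS in 43.3% (41.0 to 45.7) and in the 5UTR in 7.76% (6.57 to 9.15), against 46.4%, 49.6% and 4.00% of 15388 other DE peaks. The 5UTR share was thus 3.76 points higher (2.52 to 5.18) and the CDS share differed by -6.23 points (-8.72 to -3.71), while the interval of the 3UTR difference included 0 (2.47 points, -0.05 to 5.00). Within 200 nt of the stop codon lay 15.8% of DE-only peaks (14.1 to 17.6) and 22.7% of the others (22.0 to 23.4). Stage-only peaks of hPSC, PP and hILO had a lower share as well, as given below. More of them lay far into the 3UTR, with 22.1% (20.2 to 24.1) over 1000 nt past the stop codon against 14.5%. By width, the share beyond 1000 nt stayed higher in DE-only peaks, with 22.9% and 15.6% under 100 nt, 21.1% and 16.4% from 100 to under 200 nt, and 21.5% and 13.2% above. The 5UTR difference was 0.60 points (-1.33 to 2.79) in the narrowest class, 2.59 (0.61 to 5.04) in the middle class and 5.84 (2.55 to 10.9) in the widest. The CDS difference was -9.08 points (-12.9 to -5.18), -2.78 (-6.94 to 1.42) and -11.2 (-18.1 to -3.74) in the same order, and the 3UTR difference 8.47 (4.59 to 12.3), 0.19 (-3.98 to 4.40) and 5.32 (-2.10 to 12.6). Among peaks under 100 nt the stop codon shares were 14.3% and 16.6% with a difference of -2.22 points (-4.90 to 0.67), from 100 to under 200 nt they were 17.4% and 19.8% (-2.38 points, -5.42 to 1.01), and among peaks of 200 nt or more they were 16.9% and 25.7% (-8.79 points, -13.7 to -2.51). The interval of the stop codon difference thus included 0 in both narrower classes, which held most placed DE-only peaks.

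**Figure D2:**
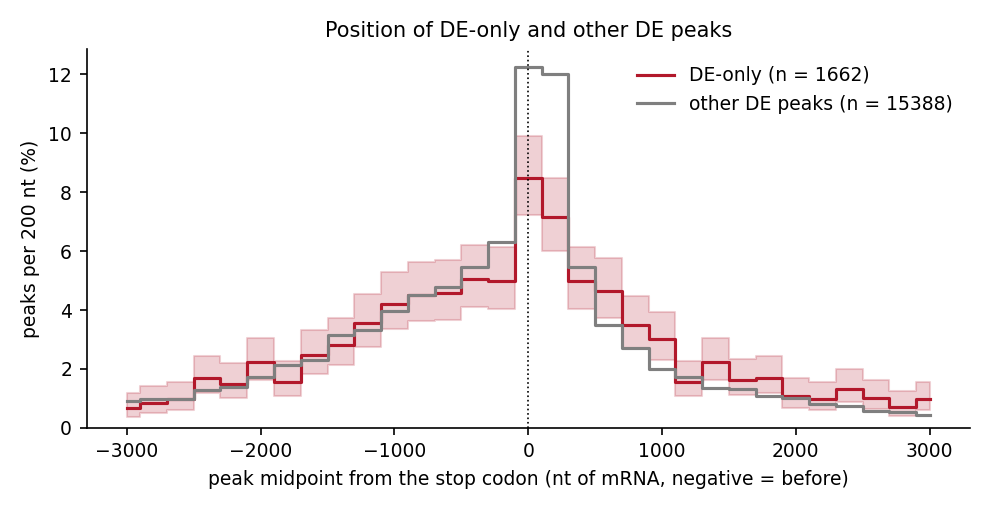
Distance of the peak midpoint from the stop codon along the mRNA in steps of 200 nt, as a percentage of 1662 DE-only peaks (red, band is the 95% Wilson interval) and of 15388 other DE peaks (grey). The step at the stop codon reached 8.48% for DE-only and 12.3% for other peaks, and from 600 to 3000 nt past it the red line runs above the grey in each step but that at 1200 nt.

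Noncoding genes were frequent. LncRNA genes held 566 DE-only peaks (19.6%, 18.2 to 21.1) against 7.28% of other DE peaks, a difference of 12.3 points (10.9 to 13.9) that was 7.09 points (4.97 to 9.33) among peaks under 100 nt, and pseudogenes held 131 (4.54% against 2.35%). On genes without a peak at the other stages the lncRNA share was 40.9%, and on genes with peaks at all 3 it was 6.17%. An exon of an opposite-strand gene was touched by 10.8% of DE-only and 11.4% of other peaks, a difference whose interval included 0. Of 2808 DE-only peaks long enough to test, 5.56% shared 50% or more of their 31-base words with transcripts elsewhere, against 4.23% of the others.

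DRACH and the shorter GGAC, which overlaps it wherever GGAC is followed by A, C or T, were searched on both strands of the exonic bases of each peak. At least 1 DRACH site was present in 81.1% of DE-only peaks (79.6 to 82.5) and 93.0% of other DE peaks, and on the opposite strand in 73.8% and 87.5%. At matched width the gap closed, with 66.9% and 68.3% under 100 nt (difference -1.42 points, -4.34 to 1.45), 94.0% and 95.3% from 100 to under 200 nt, and 99.4% and 99.7% above. Per 100 nt, DE-only peaks held 2.13 DRACH sites on the sense strand and 1.59 on the opposite strand, and other peaks 2.30 and 1.56. GGAC stood at 0.447 per 100 nt against 0.503, and 0.273 and 0.272 on the opposite strands. Of 7294 DRACH sites in DE-only peaks, 6.84% read GGACT, against 4.44% of those on the opposite strand and 6.74% of those in other DE peaks. Median GC content was 46.0% and 47.4%. Some named peaks had no DRACH site in their exonic bases, among them those of CER1, BMPR2 and REEP3.

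The batch 2 lists were not used by the rule and give a second reading of the same positions, in pancreatic progenitors. WT PP peaks overlapped 854 DE-only peaks (29.6%, 28.0 to 31.3), A5-KO PP peaks overlapped 889 (30.8%, 29.2 to 32.5), and 1207 (41.8%, 40.0 to 43.6) overlapped at least 1 of these lists. Over all DE peaks of 50 or more input reads the shares were 62.7% and 61.6%. Other DE peaks were overlapped in 67.6% and 66.2%. A lower share was largely set by the rule, which removed each DE peak that overlapped the PP list of batch 1, whereas 67.9% of the other DE peaks overlapped it, so nothing is read from that direction. Among the 6268 other DE peaks that also lacked a batch 1 PP overlap, WT PP overlapped 52.8% (51.6 to 54.0) and A5-KO PP 49.9% (48.7 to 51.2). Under 100 nt these shares were 42.1% and 36.3%, beside 27.6% and 25.6% of DE-only peaks. These other peaks were present in hPSC or hILO by the same rule, so the values are a description. On genes without a peak at the other stages WT PP overlapped 19.4% of DE-only peaks (16.7 to 22.5) and A5-KO PP 30.9% (27.6 to 34.3), whereas on genes with peaks at all 3 the shares were 35.0% and 31.3%. The lists differ in antibody, RNA and depth as well as genotype, and their part in these shares was not tested.

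**Figure D3:**
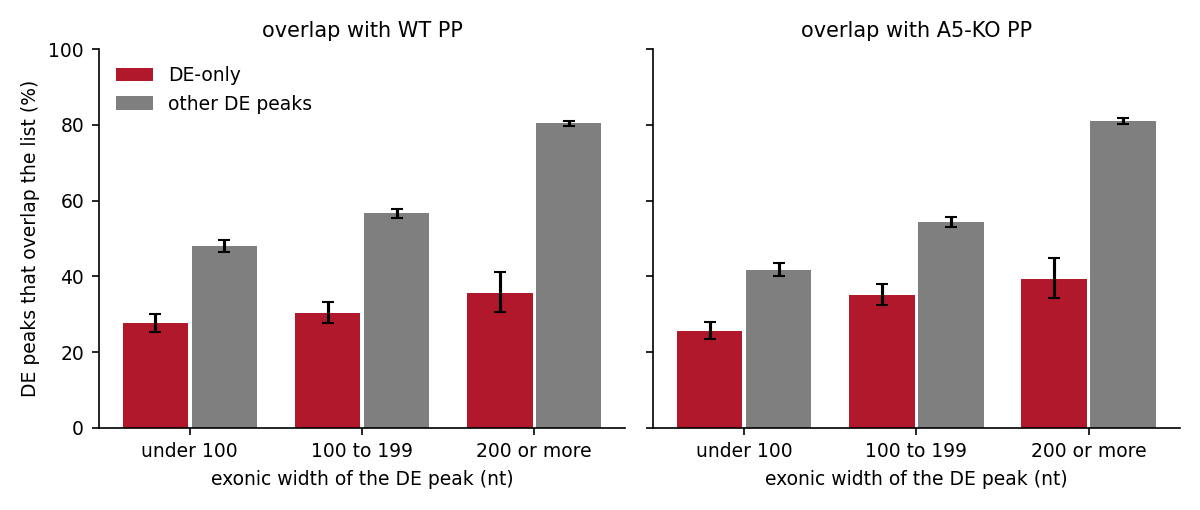
Share of DE peaks that shared at least 1 base on the same strand with a WT PP (left) or A5-KO PP (right) peak, by exonic width. Red bars are DE-only peaks and grey bars other DE peaks, with 95% Wilson intervals; red is below grey in each of the 3 width classes and in both lists, a direction largely set by the rule, since 67.9% of the other DE peaks overlapped the PP list of batch 1 and no DE-only peak did.

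Among the 536 DE-only peaks that overlapped both batch 2 lists (18.6%), the highest log2 enrichments in DE were those of TENM3, METTL18, NEK4, KPNA1 and COL4A5, from 3.18 to 3.34. COL4A5, a basement membrane collagen chain, had 2783 input and 9719 IP reads in a 75 nt stretch of its 3UTR, 283 nt past the stop codon. METTL18, a histidine methyltransferase, had 225 input and 991 IP reads 165 nt before its stop codon, 25 nt from a peak of another stage. The TENM3 and NEK4 peaks touched a peak of another stage directly, at a distance of 0 nt.

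The rule was also applied to each of the other stages for comparison. It kept 17.9% of hPSC peaks (3778 of 21048), 15.4% of PP peaks (2920 of 19014) and 22.4% of hILO peaks (6492 of 29040), so the DE share of 12.9% was the lowest of the 4 at this setting. Under the alternatives given below the DE share ranged from 10.6% to 19.1%, and the other stages were not recomputed. With 1 list per stage, the intervals do not measure a difference between stages. Stage-only peaks were narrow at every stage, with medians of 75 to 125 nt against 175 to 225 nt for the rest. Within 200 nt of the stop codon lay 12.9% of hPSC-only, 8.82% of PP-only and 14.4% of hILO-only peaks, against 21.9%, 21.2% and 22.2% of the rest. The lower share near the stop codon is thus not particular to DE-only peaks. The 5UTR share was 15.1% in hPSC-only, 14.2% in PP-only and 4.64% in hILO-only peaks, beside 7.76% in DE-only peaks. The 3UTR share of stage-only peaks was 48.9% in DE against 33.5% in hPSC, 24.1% in PP and 42.8% in hILO. Other DE peaks stood at 46.4%, close to the DE-only share, and this background is not given for the other stages. The order may therefore belong to the complete lists. LncRNA genes held 19.6% of DE-only peaks, and 14.2%, 9.32% and 12.5% of hPSC-only, PP-only and hILO-only peaks. Depth and the number of listed peaks differed between these lists, and their part in the order was not tested.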

How the data were processed

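Per the labels and methods, fragmented RNA was immunoprecipitated with an m6A antibody and sequenced beside input. The authors used fastp for trimming and HISAT2 for strand-aware alignment to GRCh38, kept 1 alignment per read and ran exomePeak2 on the libraries of each population together. The authors deposited, per peak, pooled read counts of IP and input, a log2 enrichment and a p-value (an adjusted p was not used here). The stated limits were an IP/input ratio of 1.5 and p below 1e-05, but only 62.7% of DE peaks had such a p. With 50 or more input reads it was 74.2% of DE-only peaks (2140 of 2885) and 82.5% of other DE peaks. Named DE-only peaks that missed this limit include those of DKK4, SMAD1, APC, ERBB3, IGF2BP3 and FLRT3. How counts were pooled is not given in the sources used here, and sums were assumed.

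Spans were reduced to exons of GENCODE 44 (python 3.11.15, pandas 2.3.3, pyfaidx 0.9.0.4). Of several gene IDs the coding gene was taken if it covered 0.8 or more of the best exon cover. Shares carry Wilson 95% intervals, differences Newcombe intervals. Counting error adds 0.5 to both counts. Overlap and placement were tested on simulated intervals. Gene levels were log2 shares of the list's input with a pseudocount of 0.1 added. Coordinates are 1-based.

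Named genes were those of the DE, Nodal, Wnt and FGF lists (12 with most input), up to 4 of each other list, the top 10 by enrichment (p below 1e-05), by input, by number of peaks and by input on genes without other-stage peaks, 5 in both batch 2 lists, and 3 on each side of the input limit. The members and gene lists were chosen with earlier results of these data known. The values of 1 listed gene are not reported here. Alternatives covered thresholds, overlap rules and lists. Sequence was read from the GRCh38 genome and motifs by script.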

Additional observations from a re-analysis of the deposited data

How the results depend on the processing

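The number of DE-only peaks was 2885. It fell to 1233 with 200 or more input reads, 1488 with IP/input of at least 3 and 1382 with p below 1e-10, and stayed within 1.5 times of 2885 under the other alternatives (2351 to 4276). The DE-only share of DE peaks (12.9%) was 14.6% with 20 or more input reads, 11.2% with 200 or more, 12.1% with IP/input of at least 3, 11.1% with p below 1e-10, 17.1% when over 50% of the exonic length had to be covered, 10.6% with the other lists widened by 100 nt, 11.7% with overlap on either strand and 19.1% with the other lists limited to p below 1e-05. The 3UTR share was 46.4% with 200 or more input reads, 54.6% with IP/input of at least 3 and 52.2% with p below 1e-10. The 5UTR share was 5.51% with IP/input of at least 3 and 9.87% when any overlap with the region counted, and the CDS share 39.9% and 47.7%. Within 200 nt of the stop codon lay 17.7% with the other lists limited to p below 1e-05, and 8.48% lay within 100 nt. The share on genes without other-stage peaks was 27.3% with IP/input of at least 3, 27.4% with p below 1e-10, 19.1% with over 50% covered, 30.4% with widened lists and 22.9% without peaks that touched opposite-strand or pseudogene exons or copies. WT PP overlapped 35.4% with over 50% covered, 27.4% with widened lists, 37.6% with the limited lists and 31.6% without such exons and copies, and A5-KO PP 35.9% with over 50% covered, 37.0% with the limited lists and 32.7% without such exons and copies. DRACH was present in 83.0% with IP/input of at least 3, 83.0% with over 50% covered, 82.7% with widened lists and 83.6% with the limited lists, and GGAC in 35.8%. DE regulators and markers with a DE-only peak numbered 14, and 8 with IP/input of at least 3, against 11 to 15 under the other alternatives. In all, 77 of 115 recomputed values stayed within the main interval or within 1.5 times of the count. The alternative without opposite-strand exons, pseudogenes and copies, and those for the count of DE regulators and its share, were chosen after seeing the data. For these shifts the cause was not tested. No paired analysis was possible because each population has 1 list of pooled counts, and for the same reason no replicate could be left out. Reads outside peaks were not analysed here, so depth limits what a missing peak shows.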
